A study of Mus musculus with 40 samples.

Results

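The genes described here are 10 relatives of ATF1, CREB1 and CREM: Atf2, Atf7, Creb5, Atf6, Atf6b, Creb3, Creb3l1, Creb3l2, Crebl2 and Crebzf. They were taken by symbol from a table of 55414 genes, and all 10 were found. Gene positions are those of GENCODE M21 on GRCm38, from start to end of the gene. Each has a basic leucine zipper (bZIP), the helix that lets such factors bind DNA as dimers, and none was a target of the knockouts. The question put to them was whether their transcripts differed when 1, 2 or 3 of the CREB-family genes were labelled as knocked out.

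RNA was sequenced from mpkCCD cells, a mouse kidney line immortalized from the collecting duct, on permeable supports. Every library, controls included, came from cells given 0.1 nM dDAVP, a vasopressin analogue, for 72 hours. The 22 libraries are 11 of control clones with the genotype WT, which the design text calls unmodified, and 11 of knockout labels. There are 5 of ATF1-KO, 3 of ATF1/CREB1-KO and, as the last label, 3 of ATF1/CREB1/CREM-KO. How the knockouts were made is not given in the sources used here. Nothing in the labels shows that knockout replicates come from separate clones or cultures, so p-values measure the spread between these libraries, which may be technical. Library numbers fall into 3 runs of consecutive numbers, which the labels do not call batches. Run 1 holds control clones 1 to 5 and ATF1-KO, run 2 holds control clones 6 to 8 and ATF1/CREB1-KO, and run 3 holds control clones 9 to 11 and ATF1/CREB1/CREM-KO. Each knockout label is compared with the control clones of its own run.

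As background, CREB1, ATF1 and CREM bind the cAMP response element (CRE), and several of the relatives can bind the same or a similar element. ATF2, ATF7 and CREB5 form a subgroup that is activated by stress kinases and pairs with JUN. ATF6, ATF6B and the CREB3 subgroup are made as proteins anchored in the membrane of the endoplasmic reticulum (ER), and proteases of the Golgi release their DNA-binding part when the ER is under stress or secretory demand is high. Transcript levels say nothing of that release.

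The promoters were searched for the CRE and for the elements read by ATF6. RefSeq windows (build GRCm38.p6) of 300 bases, 250 before and 50 after the start of transcription, were found for 7 of the 10 genes, with 8 windows in all. The full CRE, TGACGTCA, stood in 1 of those 7 genes, Creb5 (in the first of its 2 windows), and in 2.03% of all 27025 genes (1.79% of 32851 windows of that length). Its core, TGACG on either strand, which the full element also contains, stood in 3 genes, Creb5, Creb3l2 and Crebzf, and in 23% of all genes (20.8% of windows). The elements TGACGTGG (in 0.714% of all genes) and CCAAT followed after 9 bases by CCACG (in 0.137%), searched on both strands, stood in none of the 7. The 250 bases before the start are printed for the 3 genes with a match, 5′ to 3′ on the gene's strand, with the match in capitals. The windows lie at chr6:53287053-53287302 (plus strand) for Creb5, chr6:37442149-37442398 (minus strand) for Creb3l2 and chr7:90442531-90442780 (plus strand) for Crebzf.
Creb5: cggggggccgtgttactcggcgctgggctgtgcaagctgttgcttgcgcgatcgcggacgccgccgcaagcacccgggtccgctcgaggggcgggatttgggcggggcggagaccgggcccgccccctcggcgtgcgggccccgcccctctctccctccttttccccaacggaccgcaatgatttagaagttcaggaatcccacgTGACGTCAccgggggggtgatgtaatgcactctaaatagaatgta
Creb3l2: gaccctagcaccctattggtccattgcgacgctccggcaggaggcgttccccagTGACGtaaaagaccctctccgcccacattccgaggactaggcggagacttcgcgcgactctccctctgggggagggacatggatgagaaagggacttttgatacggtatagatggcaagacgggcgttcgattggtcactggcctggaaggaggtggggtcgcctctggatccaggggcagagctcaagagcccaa
Crebzf: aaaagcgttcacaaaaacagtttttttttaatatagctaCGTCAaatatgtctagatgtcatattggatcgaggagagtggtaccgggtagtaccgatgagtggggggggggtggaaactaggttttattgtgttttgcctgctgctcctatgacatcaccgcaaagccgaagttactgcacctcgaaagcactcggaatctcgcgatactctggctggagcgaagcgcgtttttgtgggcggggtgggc
The capitals begin 45 bases before the start in Creb5, 196 in Creb3l2 and 211 in Crebzf, where the core is on the opposite strand. A match is a description of the letters and does not show binding.

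Values are TPM, transcript abundances corrected for length and scaled to the same total in each library, so levels can be compared between genes. Read depth is unknown, and between 17296 and 20703 genes were above 0 per library. The 6 libraries of run 2 stood apart in composition: 90 ribosomal protein genes took 7.294% to 15.44% of their TPM, against 2.728% to 4.2% in the other 16, and ATF1/CREB1-KO replicate 3 had the 7.294%. Of 12 principal cell markers 6 were at 1 TPM or more in every library, but Elf5 and Tfap2b were under 1 TPM in all. Of 8 intercalated cell markers 6 were under 1 TPM in every library, while Atp6v1b1 was between 14.42 and 102.8 TPM. Of 3 proximal tubule markers Lrp2 was at 1.1 to 25.2 TPM in every library and the other two were under 1 TPM. The summed markers of fibroblasts reached at most 1.05 TPM, and the leukocyte marker Ptprc at most 3.54 TPM. The targeted genes stayed detectable: mean Atf1 was 62.97% of own-run controls in ATF1-KO, 77.79% in ATF1/CREB1-KO and 80.81% in ATF1/CREB1/CREM-KO. Mean Creb1 was 61.04% and 49.62% of its controls in the 2 labels that name it. The same limma test passed Creb1 in ATF1/CREB1/CREM-KO (adjusted p = 0.00305) but not in ATF1/CREB1-KO (adjusted p = 0.471). Mean Crem was 134.5% in the 1 label that names CREM, so transcript level does not check that label. Every library of that label was above every control in Crem, as in 14.5% of all genes. The log2 change of Crem there was 0.41. It was 0.08 with each library's chromosome medians subtracted, a setting described below with Atf6b. In bulk RNA, fewer cells expressing a gene and less RNA per cell cannot be told apart.

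In the control clones the 10 genes spanned the range from abundant to undetected. In run 1 the order of mean levels was Atf2 (79.1 TPM ± 3.71, SD, n = 5), Creb3 (74.7 ± 6.47), Atf7 (67.9 ± 15.1), Atf6b (56.9 ± 4.28), Crebzf (49.8 ± 5.81), Creb3l2 (21.5 ± 2.47), Atf6 (19.4 ± 1.48), Crebl2 (7.57 ± 1.14), Creb5 (1.07 ± 0.692) and Creb3l1 at 0. Neighbours from Atf2 down to Crebzf overlapped in range, as did Creb3l2 and Atf6. Crebzf stood apart from Creb3l2, and Atf6, Crebl2 and Creb5 each stood apart from the next gene down. Run 3 had nearly the same order, with Atf7 first (90.6 TPM ± 16.3, SD, n = 3) and overlapping Atf2 (85.3 ± 5.65). Creb3l2 was the member that differed most between those 2 runs, at 39.3 TPM ± 4.99 (SD, n = 3) in run 3, which is 182.5% of run 1.

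**Figure D1:**
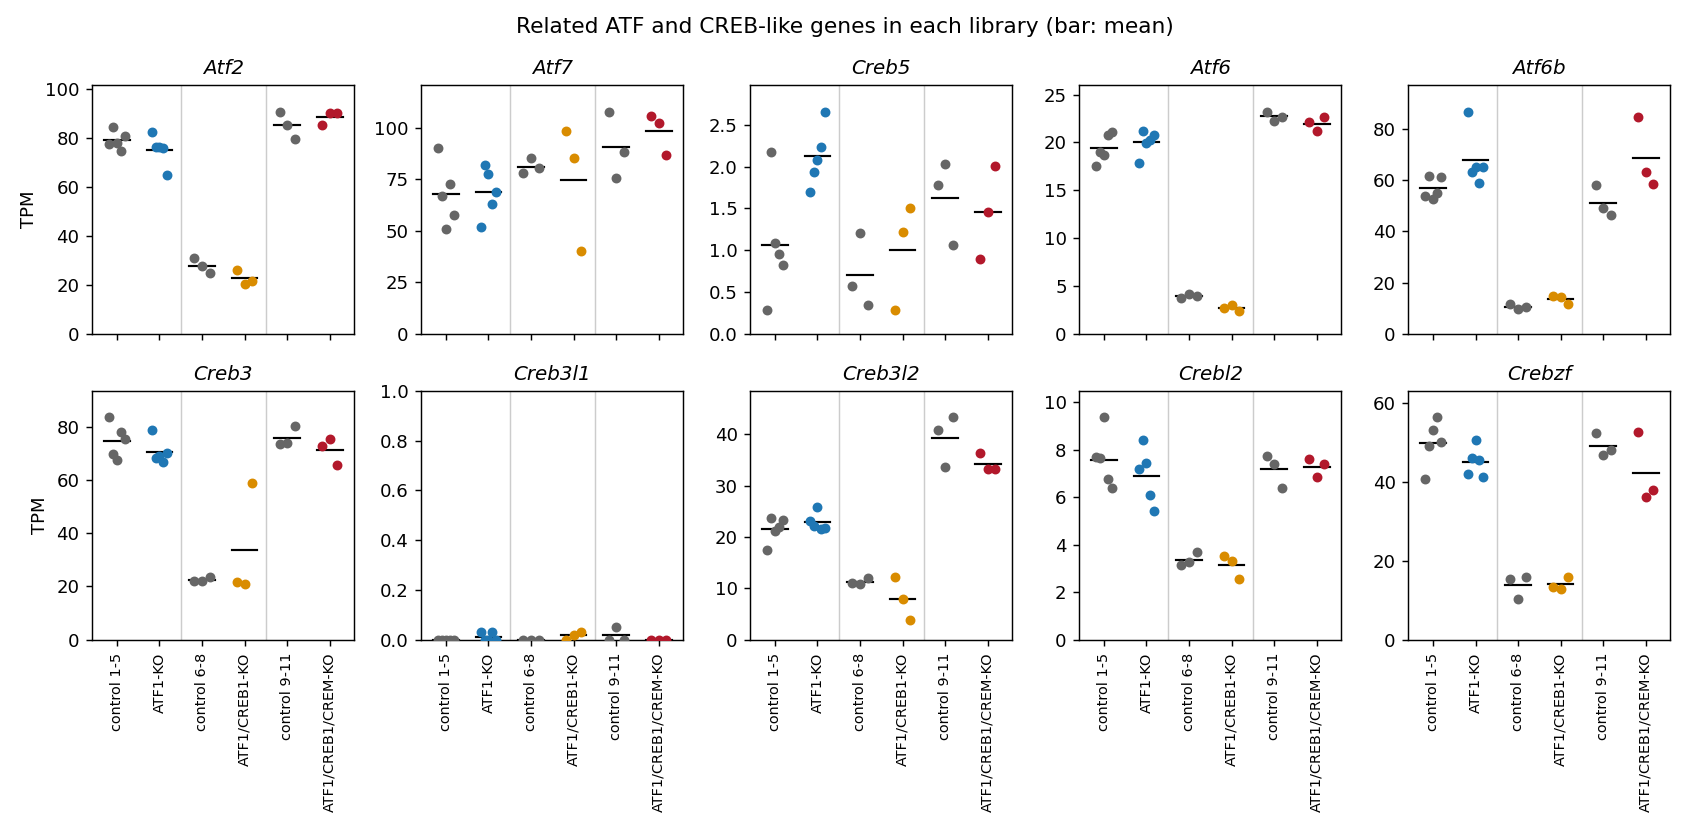
Each panel plots the level of 1 gene in TPM (linear axis from 0) in every library, by label and run, with points for libraries and bars for means. Grey points are control clones. For 7 of the 9 detected genes every run 2 library lies below every library of the other runs, while the run 2 values of Creb5 and Atf7 overlap the rest.

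The controls of run 2 gave another picture of the family. Atf7 alone headed the order there, at 81.2 TPM ± 3.68 (SD, n = 3), or 106.3% of its mean over the other 8 control clones. The ATF6 pair was at the other end: Atf6 was at 3.93 TPM ± 0.217 (SD, n = 3), 19.03% of the others, and Atf6b at 10.5 TPM ± 1.05 (SD, n = 3), 19.22%. Atf2 was at 34.26% of the others, Creb3 at 29.89%, Crebzf at 28.06%, Creb3l2 at 39.95% and Crebl2 at 45.35%. In limma these 7 genes were lower, with log2 differences from -0.94 (Crebl2) to -2.27 (Atf6b), against a background of 84.9% of 13334 genes called (71.2% lower) and a median of -1.34 over all genes. Atf7 (0.12, adjusted p = 0.544) and Creb5 (-0.39, adjusted p = 0.221) were not called.

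The median of all genes shows that these libraries differed as a whole. When each library was rescaled by its median ratio to the others, that median was -0.09 and 4 members were called in place of 7. Atf6 (-0.77) and Atf6b (-0.80) stayed lower, and Atf7 (1.66, adjusted p = 5.56e-06) and Crebl2 (0.36, adjusted p = 0.016) were called higher. The share of calls that were lower fell from 83.92% to 52.3% over all genes. Relative to the median of all genes, Atf6 and Atf6b were low and Atf7 was high in the controls of run 2 under both scalings. Median-ratio scaling divides each library by 1 factor, which nearly keeps a gene's place relative to that median. It is therefore no separate check of that place. Under quantile normalization the differences of Atf6, Atf6b and Atf7 were -0.92, -0.74 and 1.22. The ribosomal share given above moved with these levels, and its part in them was not tested.

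**Figure D2:**
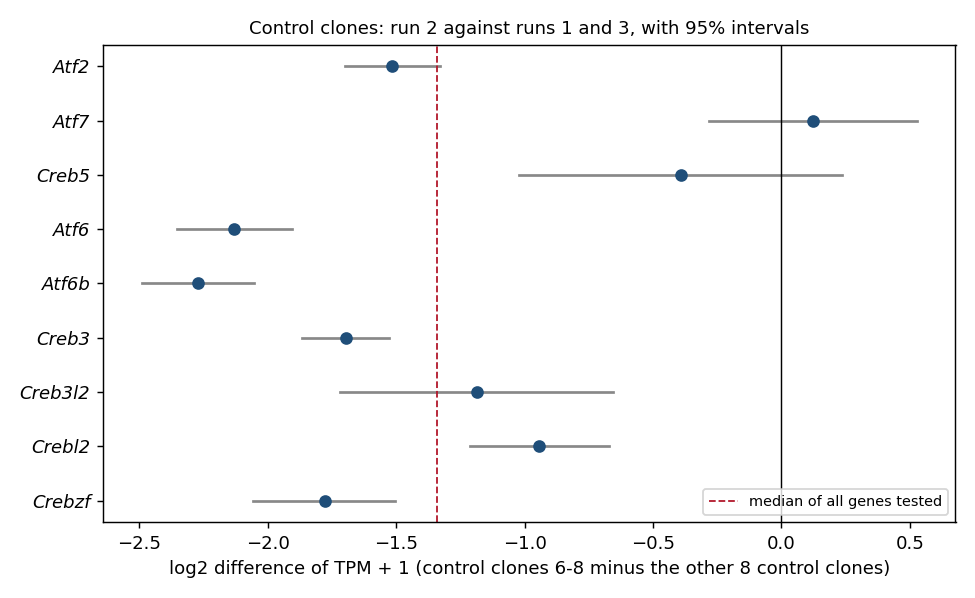
Points are log2 differences of TPM + 1 between control clones 6 to 8 and the other 8 control clones, with 95% confidence intervals, and the dashed line is the median of all genes at -1.34. Atf6 and Atf6b lie farthest to the left of that line, with Atf2, Creb3 and Crebzf also to its left. Atf7 lies farthest to its right. Among all genes tested, the differences of Atf6b, Atf6 and Atf7 stood at percentiles 14.76, 20.63 and 81.77.

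Against this background, none of the members was called in any of the 3 own-run comparisons. In ATF1-KO, 0 of 9 tested members passed an adjusted p of 0.05, where 0% of 13318 genes did (1014 genes, 7.61%, had an unadjusted p under 0.05). In ATF1/CREB1-KO it was 0 of 8 members, beside 0.0715% of 12579 genes. For ATF1/CREB1/CREM-KO the count was 0 of 9 members, beside 9.17% of 13258 genes. At an unadjusted p under 0.05 there were 2 of 9, 0 of 8 and 1 of 9 members in the 3 comparisons, beside 7.61%, 9.53% and 27.0% of all genes. The median log2 change of the members was 0.03, -0.15 and -0.05, and that of all genes was 0.00, -0.03 and -0.05. The summed level of the 10 genes was 379.3 TPM ± 17.27 (SD, n = 5) in ATF1-KO and 377.9 ± 15.13 in its controls, 173.5 ± 17.9 (SD, n = 3) and 175.2 ± 1.336 in run 2, and 434.3 ± 31.66 (SD, n = 3) and 422.8 ± 30.7 in run 3.

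**Figure D3:**
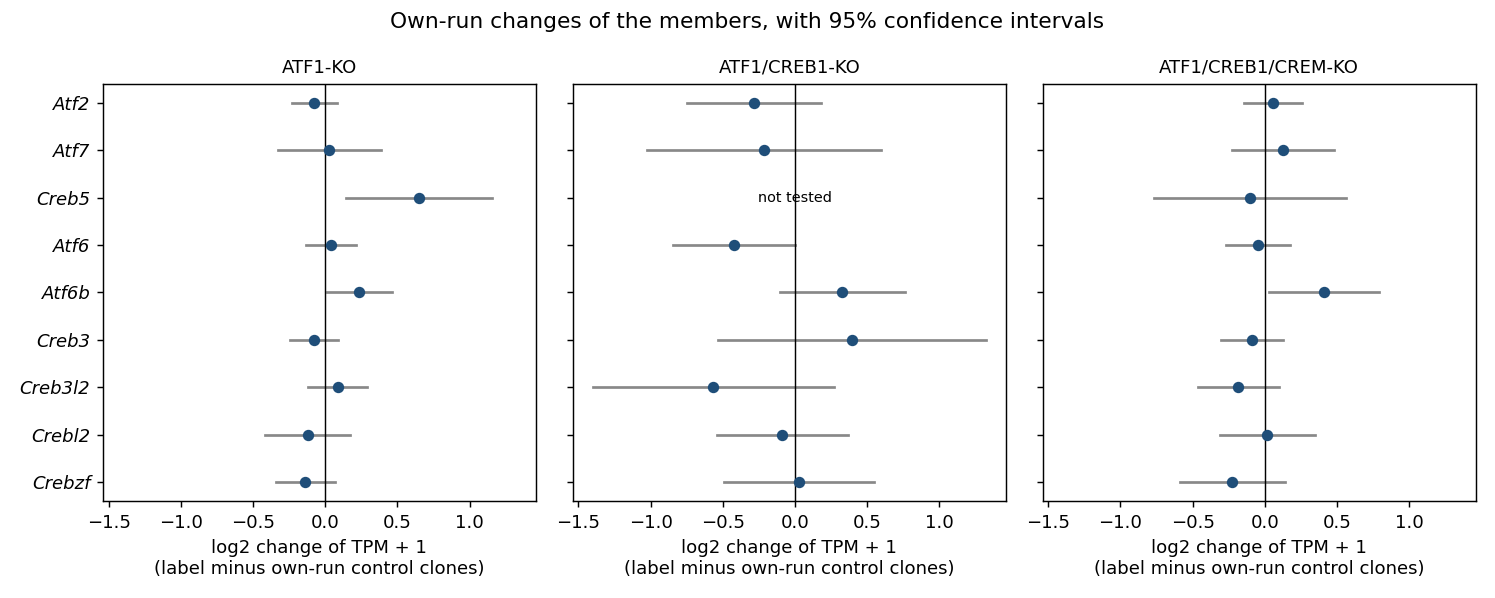
Points are own-run log2 changes of TPM + 1 for the 9 detected members in the 3 knockout labels, and lines are 95% confidence intervals. Most intervals cross 0. Those of Creb5 and Atf6b in ATF1-KO and of Atf6b in ATF1/CREB1/CREM-KO do not, but none of them passed the adjusted test.

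The groups overlapped for nearly every member. In ATF1-KO 0 of 9 members separated fully from the controls, where 1.30% of genes did. In ATF1/CREB1-KO the 1 member that did was Atf6, lower, among 19.0% of genes (12.4% lower). In ATF1/CREB1/CREM-KO it was Atf6b, higher, among 34.6% of genes (14.5% higher). These counts, 1 of 8 and 1 of 9, are close to or below those shares.

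Among the ATF2 subgroup, Atf2 itself (ENSMUSG00000027104, chr2:73816509-73892639, minus strand) encodes a stress-activated factor that pairs with JUN. It ranged from 74.6 to 84.41 TPM in control clones 1 to 5 and from 64.84 to 82.38 TPM in ATF1-KO. In run 2 the controls were at 31.2, 27.62 and 24.85 TPM and the ATF1/CREB1-KO libraries at 26.12, 20.53 and 21.52 TPM. In run 3 they were at 90.89, 85.45 and 79.6 TPM, against 85.47, 90.18 and 90.41 TPM in ATF1/CREB1/CREM-KO. All 3 comparisons overlapped, though in run 2 replicates 2 and 3 of the knockout label were below every control. The log2 changes were -0.07 (95% interval -0.23 to 0.08), -0.29 (-0.75 to 0.18) and 0.06 (-0.14 to 0.26).

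Atf7 (ENSMUSG00000099083, chr15:102525946-102625464, minus strand) is the closest relative of Atf2. Control clones 1 to 5 ranged from 51.05 to 90.45 TPM and ATF1-KO from 51.88 to 82.17 TPM. The ATF1/CREB1-KO libraries were at 98.69, 85.33 and 40.23 TPM beside controls at 77.96, 85.2 and 80.44 TPM, so that the label held both the highest and the lowest value of its run. It was at 105.59, 102.56 and 86.88 TPM in ATF1/CREB1/CREM-KO and in control clones 9 to 11 at 107.95, 75.53 and 88.36 TPM. The log2 changes were 0.03 (95% interval -0.33 to 0.38), -0.21 (-1.02 to 0.59) and 0.13 (-0.23 to 0.48). Atf7 shares 1284 exon bases on its strand with the annotated gene Gm28047, and how reads were split between the pair is not known.

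Creb5 (ENSMUSG00000053007, chr6:53287270-53700376, plus strand), the third of the subgroup and the member with the full CRE in its promoter, sat near the limit of detection. Control clones 1 to 5 were at 0.29, 2.18, 1.09, 0.96 and 0.82 TPM, and the ATF1-KO libraries at 1.7, 1.94, 2.08, 2.24 and 2.66 TPM. All 5 knockout libraries exceeded 4 of the 5 controls, and control clone 2 lay within their range. The log2 change, 0.65 ± 0.23 (SE; 95% interval 0.14 to 1.16), had an unadjusted limma p of 0.0166 and an adjusted p of 0.608. In ATF1/CREB1-KO Creb5 was at 0.29, 1.22 and 1.5 TPM beside 0.57, 1.21 and 0.34 TPM, too low to be tested there. The ATF1/CREB1/CREM-KO libraries had 0.89, 1.46 and 2.01 TPM beside 1.78, 2.03 and 1.06 TPM, a log2 change of -0.10 (-0.77 to 0.56).

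Of the membrane-bound factors, Atf6 (ENSMUSG00000026663, chr1:170704674-170867771, minus strand) is an ER stress sensor. Control clones 1 to 5 ranged from 17.58 to 21.1 TPM and ATF1-KO from 17.86 to 21.2 TPM. The ATF1/CREB1/CREM-KO libraries, at 22.12, 21.15 and 22.61 TPM, overlapped their controls at 23.22, 22.28 and 22.68 TPM. The intervals of those log2 changes were -0.13 to 0.22 and -0.27 to 0.17. In run 2 the controls were at 3.7, 4.13 and 3.96 TPM and the ATF1/CREB1-KO libraries at 2.65, 3.01 and 2.41 TPM, all below the lowest control.

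That run 2 difference, -0.42 ± 0.18 (SE), had an adjusted p of 0.525 in the own-run limma fit. It was called (adjusted p = 0.0193) when all 22 libraries were fitted together with run as a term, a fit in which 4.58% of genes were called and Atf6 was the 1 member called. With all 11 control clones and no run term, where 32.1% of genes were called, Atf2, Atf6 and Creb3l2 were called lower (adjusted p = 0.0446 each). Across the alternatives tried the adjusted p of Atf6 ran from 0.0193 to 0.975. The difference between the ATF1/CREB1-KO and ATF1-KO changes of Atf6 was -0.46 ± 0.13 (SE), with an adjusted p of 0.0717, and 0 of 27 such differences between labels were called for the members (beside 1.46%, 3.57% and 0.188% of genes in the 3 differences). ATF1/CREB1-KO replicate 3, with the lowest Atf6, was also the library with the low ribosomal share, and the part of that share in the Atf6 values was not tested.

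Atf6b (ENSMUSG00000015461, chr17:34647146-34655074, plus strand) encodes the second ATF6 protein, a weaker activator that can pair with ATF6. Control clones 1 to 5 were at 53.96, 61.71, 52.45, 55.11 and 61.19 TPM and the ATF1-KO libraries at 86.7, 62.97, 64.98, 58.81 and 64.9 TPM. Replicate 1 stood far above the rest, and replicate 4 lay within the range of the controls. In run 2 the controls were at 11.67, 9.62 and 10.26 TPM and ATF1/CREB1-KO at 14.69, 14.33 and 11.47 TPM, with replicate 3 inside the control range. In run 3 the controls were at 57.91, 49.08 and 46.25 TPM and ATF1/CREB1/CREM-KO at 84.44, 63.31 and 58.54 TPM, all above the controls though replicate 3 only by a little.

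The mean of Atf6b was thus 119%, 128.3% and 134.6% of own-run controls, and it was the 1 tested member with a positive log2 change over 0.2 in every label. The changes were 0.24 ± 0.10 (SE; adjusted p = 0.642), 0.33 ± 0.18 (adjusted p = 0.617) and 0.41 ± 0.16 (adjusted p = 0.159) in limma, so none passed. Without replicate 1 of ATF1-KO the first was 0.145. Without replicate 1 of ATF1/CREB1/CREM-KO the third was 0.26, and without its replicate 3 it was 0.52.

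The rest of chromosome 17 was also higher in most of the libraries with high Atf6b. The median deviation of the 547 other genes of that chromosome from the own-run control mean, relative to the median of all genes, lay between -0.03 and 0.03 on the log2 scale in all 11 control clones. It was 0.37 in ATF1-KO replicate 1, the library with the highest Atf6b, and 0.0023, -0.01, 0.02 and -0.02 in replicates 2 to 5, where Atf6b deviated by 0.15, 0.19, 0.05 and 0.19. It was 0.33, 0.22 and 0.03 in ATF1/CREB1-KO replicates 1 to 3, where Atf6b deviated by 0.45, 0.42 and 0.12. It was 0.29, 0.23 and 0.22 in ATF1/CREB1/CREM-KO, where Atf6b deviated by 0.72, 0.31 and 0.20. In the 6 libraries with a median above 0.2 the shift was 0.21 to 0.35 among the 312 genes more than 10 Mb from Atf6b. Among the 235 nearer ones it was 0.21 to 0.38 in those libraries. In ATF1/CREB1-KO replicate 3 the 2 sets differed, at 0.10 for the farther genes and -0.05 for the nearer ones.

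With each library's chromosome medians subtracted, the Atf6b log2 changes were 0.16, 0.13 and 0.16, with adjusted p-values of 0.569, 0.807 and 0.519. This setting was chosen after the chromosome values were seen. The genes whose pattern over the 22 libraries was most like that of Atf6b (Pearson correlation of log2 values centred within run, among 10496 genes) were AI413582 (0.874), Lemd2 (0.813), Ndufv2 (0.80) and Glce (0.788). The first 3 are on chromosome 17 and Glce is on chromosome 9. The 99th percentile over the genes compared was 0.648. The points share runs and libraries, so the coefficients are a description.

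**Figure D4:**
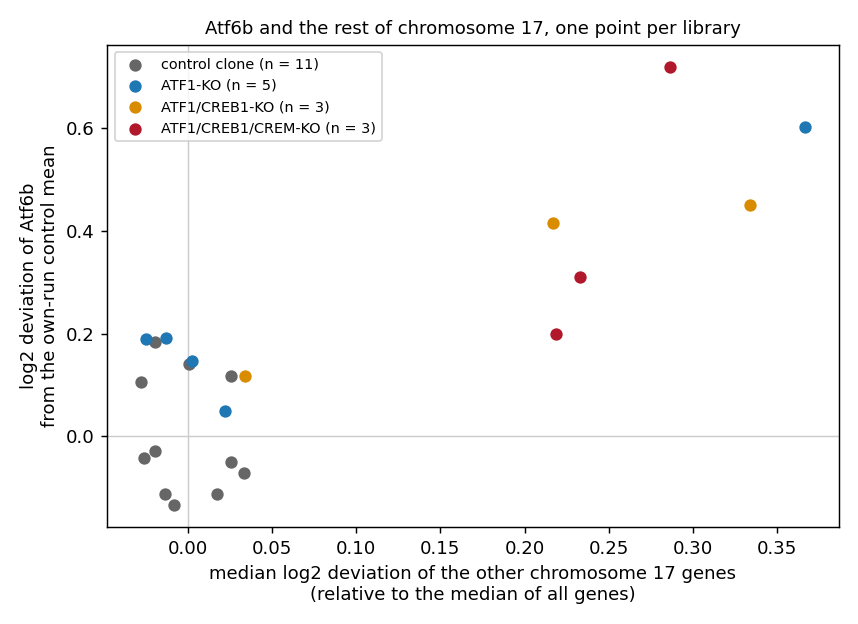
Each point is 1 library: the horizontal axis is the median log2 deviation of the 547 other chromosome 17 genes relative to all genes, and the vertical axis is the log2 deviation of Atf6b, both from the own-run control mean. The control clones lie near 0 on the horizontal axis, and 6 of the 11 knockout-label libraries lie above 0.2 on it, with Atf6b deviations between 0.20 and 0.72.

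Creb3 (ENSMUSG00000028466, chr4:43562332-43567060, plus strand), the founder of the ER-anchored CREB3 subgroup, ranged from 67.35 to 83.47 TPM in control clones 1 to 5 and from 66.84 to 78.9 TPM in ATF1-KO. It was at 73.63, 73.87 and 80.28 TPM in control clones 9 to 11 and at 72.74, 75.49 and 65.67 TPM in ATF1/CREB1/CREM-KO. Its log2 changes in these labels were -0.08 (95% interval -0.24 to 0.09) and -0.09 (-0.30 to 0.12). In run 2 the controls were at 22.06, 21.97 and 23.36 TPM and ATF1/CREB1-KO at 21.53, 20.79 and 58.76 TPM. Replicate 3 alone set that label's log2 change of 0.40 ± 0.39 (SE), which was -0.08 without it. Exons of Creb3 overlap those of Tln1 (360 bases) and Gba2 (133 bases) on the opposite strand, and nothing in the sources says that counting used strand.

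Creb3l2 (ENSMUSG00000038648, chr6:37327255-37442146, minus strand), a CREB3 relative tied to secretion, showed the reverse in that library. In run 2 the controls were at 11.01, 10.75 and 12.03 TPM and ATF1/CREB1-KO at 12.28, 7.89 and 3.79 TPM, so the label held the highest value as well as the lowest. The log2 change was -0.57 ± 0.36 (SE; adjusted p = 0.659), and -0.17 without replicate 3. Over the 22 libraries, centred within run, Creb3 and Creb3l2 had a Pearson correlation of -0.80, a description with that replicate among its points. The genes most like Creb3l2 in the same measure were Hnrnpul1 (0.917), Rps20 (0.909), Acin1 (0.902) and C77080 (0.901). Over the 10496 genes compared the 99th percentile was 0.804, and that replicate is among these points too. Elsewhere Creb3l2 overlapped its controls, with log2 changes of 0.09 (95% interval -0.12 to 0.29) in ATF1-KO and -0.18 (-0.47 to 0.10) in ATF1/CREB1/CREM-KO.

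Creb3l1 (ENSMUSG00000027230, chr2:91982328-92024502, minus strand), which in other tissues drives collagen secretion, was listed at 0 in 17 of the 22 libraries. The other 5 had 0.02 to 0.05 TPM: ATF1-KO replicates 1 and 4, ATF1/CREB1-KO replicates 2 and 3, and control clone 10. All 3 ATF1/CREB1/CREM-KO libraries were at 0. It passed no filter and was not tested.

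The remaining 2 members are small or atypical. Crebl2 (ENSMUSG00000032652, chr6:134830154-134858931, plus strand), a short bZIP protein, ranged from 6.4 to 9.35 TPM in control clones 1 to 5 and from 5.41 to 8.42 TPM in ATF1-KO. It was at 3.12, 3.28 and 3.7 TPM in control clones 6 to 8 beside 3.53, 3.3 and 2.54 TPM in ATF1/CREB1-KO. It was at 7.74, 7.41 and 6.39 TPM in control clones 9 to 11 beside 7.59, 6.83 and 7.38 TPM in ATF1/CREB1/CREM-KO. The groups overlapped each time, with log2 changes of -0.12 (95% interval -0.42 to 0.17), -0.09 (-0.54 to 0.37) and 0.02 (-0.31 to 0.35).

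Crebzf (ENSMUSG00000051451, chr7:90442729-90447994, plus strand) encodes a factor that acts mostly by binding other proteins. It ranged from 40.75 to 56.27 TPM in control clones 1 to 5 and from 41.1 to 50.59 TPM in ATF1-KO, a log2 change of -0.14 (-0.34 to 0.07). In run 2 it was at 15.41, 10.32 and 15.93 TPM in controls and at 13.3, 12.9 and 15.75 TPM in ATF1/CREB1-KO. The ATF1/CREB1/CREM-KO libraries were at 52.57, 36.22 and 37.95 TPM beside controls at 52.33, 46.65 and 47.98 TPM. Replicates 2 and 3 lay below every control and replicate 1 above them. The log2 change was -0.23 ± 0.15 (SE; adjusted p = 0.383). Without replicate 1 it was -0.39 and called (adjusted p = 0.0197). The count over all genes moved with that replicate too: 3317 genes were called without it and 1216 with it, while leaving out 1 of the other 5 libraries of run 3 gave 185 to 489.

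The pathway genes around these factors were read from 5 lists. The lists were chosen with earlier results of these data known, so their counts are a description. In ATF1-KO and ATF1/CREB1-KO the own-run limma test called none of them (0 of 71 genes tested in each), with 5 genes in each label at an unadjusted p under 0.05, as were 7.61% and 9.53% of all genes. In ATF1/CREB1/CREM-KO 13 were called, 8 higher and 5 lower, beside 3.91% and 5.26% of all genes in those directions, and 33 of the 71 had an unadjusted p under 0.05, beside 27.0% of all genes. In the same libraries the summed principal cell markers, Aqp2 among them, were at 1396, 609 and 617.6 TPM, with controls at 2859, 1571 and 3650 TPM, and mean Aqp2 was 1.022% of control. The summed proximal tubule markers were at 25.2, 1.3 and 1.73 TPM, with controls at 21.53, 19.82 and 19.93 TPM. The part of these differences in the gene-group changes was not tested. The calls changed with the libraries used. All 13 had an adjusted p above 0.05 when all 11 control clones were used without a run term (1.03% of genes were called), 7 kept the call in the fit of all 22 libraries (8.02%), and 2, Herpud1 and Cebpb, kept it whichever library of run 3 was left out. In the limma fit of all 22 libraries, ATF1/CREB1-KO also had calls, beside 4.58% of all genes. In the 5 lists, in the order below, they were 2 of 20, 1 of 11, 2 of 16, 2 of 13 and 0 of 13. Among them Herpud1 (146.4% of control, adjusted p = 0.0297) and Sec23a (179.7%, adjusted p = 0.0413) were higher, and Hcfc1 (71.45%, adjusted p = 0.0472) was lower. Mia3 was at 4.28, 5.05 and 4.18 TPM in that label, with controls at 9.13, 11.19 and 9.89 TPM.

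Of 20 ER stress genes bound or induced through ATF6, 3 rose in ATF1/CREB1/CREM-KO and none was called lower. Over all genes 3.91% were called higher and 5.26% lower. The list median log2 change was 0.21 against -0.05 for all genes. Herpud1, which takes part in the removal of misfolded ER proteins, was at 498.34, 613.21 and 558.38 TPM, with control clones 9 to 11 at 235.42, 204.59 and 233.75 TPM. Every library was above every control, as in 14.5% of all genes, and the log2 change was 1.30 ± 0.11 (SE; adjusted p = 0.00172). Dnajb9, a co-chaperone of the ER, rose from 27.8 TPM ± 2.34 to 46.7 ± 10.7 (SD, n = 3; adjusted p = 0.047). Pdia6, a disulfide isomerase, rose from 376.6 TPM ± 11.7 to 492.1 ± 33.0 (SD, n = 3; adjusted p = 0.0337). Both lost the call in the fit of all 22 libraries, at adjusted p-values of 0.0572 and 0.437. In Sdf2l1 (60.25% of control, log2 change -0.76, adjusted p = 0.0679) and Xbp1 (79.89%, -0.32, adjusted p = 0.104), named after their values were seen, every library was below every control, without passing the test. The opposite separation, every library above every control, was also seen without a call in Hspa5, Calr, Pdia3, Syvn1, Hyou1, Manf and Creld2. Over all genes, 34.6% separated from their controls in either direction. Of 11 genes that process ATF6 or belong to other arms of the ER stress response, none was called by the own-run limma test. An unadjusted p under 0.05 was found for 2, as for 27.0% of all genes. In the limma fit of all 22 libraries 1 was called, beside 8.02% of all genes. It was Mbtps1, a protease that processes ATF6, at 72.7% of control (adjusted p = 0.0463, and 0.078 in the own-run fit).

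Of 16 secretory pathway genes tied to the CREB3 factors, 2 rose and 1 fell, beside 3.91% and 5.26% of all genes in those directions. Sec23a, a coat protein of vesicles leaving the ER, was at 154.59, 94.56 and 89.31 TPM beside controls at 52.8, 59.22 and 56.9 TPM (log2 change 0.95 ± 0.21, SE; adjusted p = 0.0387). Lman1, a cargo receptor, was at 93.94, 118.47 and 116.08 TPM beside 75.22, 75.85 and 71.3 TPM (0.55 ± 0.11, SE; adjusted p = 0.0293). Mia3, which loads large cargo into those vesicles, was at 29.32, 21.7 and 22.49 TPM beside 36.98, 37.66 and 38.75 TPM (-0.62 ± 0.13, SE; adjusted p = 0.0359). None of the 3 overlapped its controls, as was so for 34.6% of all genes, and the 3 were named because they were called. With chromosome medians subtracted Lman1 lost its call (adjusted p = 0.0969).

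Of 13 tested kinases and dimer partners of ATF2 and ATF7, 3 rose and 1 fell, beside 3.91% and 5.26% of all genes. Mapk14, the p38 kinase that phosphorylates ATF2, was at 123.71, 143.65 and 153.89 TPM beside controls at 102.29, 101.63 and 101.38 TPM (log2 change 0.45 ± 0.10, SE; adjusted p = 0.0372). Its call was lost with chromosome medians subtracted (adjusted p = 0.252). The AP-1 factor Fosl2 rose by 0.62 ± 0.14 (SE; adjusted p = 0.0467), lost in the fit of all 22 libraries (adjusted p = 0.128), and the small Maf factor Mafg by 0.51 ± 0.09 (SE; adjusted p = 0.021). Fos, a known cAMP-responsive gene, was at 15.34, 12.8 and 15.19 TPM beside 25.53, 27.67 and 28.17 TPM, a log2 change of -0.87 ± 0.11 (SE; adjusted p = 0.00889).

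Of 13 tested further bZIP genes, 3 fell and none rose, beside 5.26% and 3.91% of all genes. Creb3l4, another ER-anchored CREB3 relative, was at 3.5, 3.41 and 2.98 TPM beside controls at 6.48, 7.14 and 6.18 TPM (log2 change -0.82 ± 0.15, SE; adjusted p = 0.0244). Cebpb, a known CREB target, was at 133.25, 145.92 and 134.5 TPM beside 217.71, 247.17 and 246.27 TPM (-0.78 ± 0.09, SE; adjusted p = 0.00539). Jdp2, a JUN partner, was at 117.09, 144.63 and 145.76 TPM beside 187.02, 179.55 and 200.61 TPM (-0.48 ± 0.11, SE; adjusted p = 0.0425). In the fit of all 22 libraries these 3 had adjusted p-values of 0.0785, 0.0558 and 0.0875 and were not called.

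**Figure D5:**
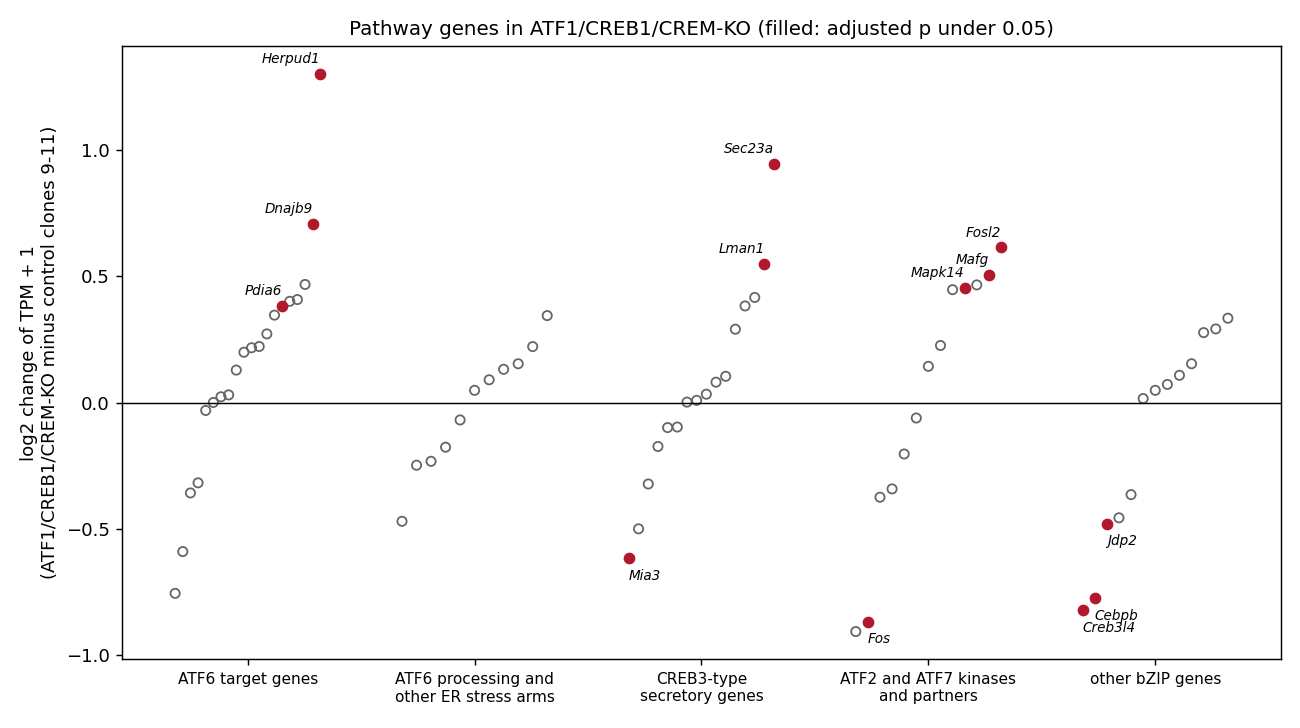
Points are own-run log2 changes of TPM + 1 in ATF1/CREB1/CREM-KO for the tested genes of the 5 lists, sorted within each list. Filled points passed an adjusted p of 0.05: 8 rose, with Herpud1 highest at 1.30, and 5 fell, with Fos lowest at -0.87.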

How the data were processed

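Total RNA of 22 mpkCCD libraries was copied with a SMARTer kit, tagmented with Nextera XT and sequenced with paired-end reads, per the labels' protocols. The submitters' processing notes name STAR and RSEM, without versions or roles, and the build and annotation are not given in the sources used here. The authors deposited TPM per gene, in 1 table whose columns sum to between 999999.45 and 1000001. Depth is unknown, so no counting interval is given, and a 0 can be a failed estimate. No 2 columns were identical. The 18 samples of the rescue experiment were not analysed here.

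Differences were tested with limma 3.58.1 in R 4.3.3 (eBayes with trend) on log2(TPM + 1) in the libraries compared only, two-sided. Genes entered where their mean was 1 TPM or more, and p-values were adjusted over all of them (Benjamini-Hochberg). A gene was called at an adjusted p under 0.05. Log2 changes are on the log2(TPM + 1) scale and understate changes of low genes. The procedure was tested on simulated data, whose setting and result are not given here, so nothing above rests on it. Differences between labels were contrasts in 1 fit of all 22 libraries.

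All 10 members were named in every comparison. From the 5 pathway lists, called genes were named, at most 6 per list. For the 2 members with the smallest own-run adjusted p-values, the 4 genes with the highest correlation were named (mean of 5 TPM or more). The members and lists were chosen with earlier results of these data known. Chromosomes and exons are from GENCODE M21 (GRCm38), and promoter sequences from RefSeq (GRCm38.p6). Chromosome medians used those with a mean of 5 TPM or more. Alternatives were a pseudocount of 0.1, no filter, median-ratio and quantile scaling, all control clones, all 22 libraries, a replicate block in run 1, and each library left out.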

Additional observations from a re-analysis of the deposited data

Results flagged for a closer look

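In ATF1-KO replicate 1, a pair of members stood far above the other 4 libraries of the label. Atf6b was at 86.7 TPM there, and its gap to the next library took up 0.779 of the group's range, over Dixon's critical value of 0.71 for 5 samples. Creb3 was at 78.9 TPM in the same library, with a gap of 0.743 of the range, though within the range of control clones 1 to 5. Of 18 groups of 5 libraries examined 2 passed, and chance passes about 1 in 20. The chromosome 17 median of that library, 0.37, is given in the report beside Atf6b.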

How the results depend on the processing

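No member was called in ATF1-KO under any of 18 alternatives. In ATF1/CREB1-KO 1 member (Atf6) was called with all 22 libraries and 3 (Atf2, Atf6 and Creb3l2, adjusted p = 0.0446 each) with all control clones, a fit that mixes runs. For ATF1/CREB1/CREM-KO 0 to 1 members were called with 1 library left out. Genes called in ATF1-KO were 0 to 1 with 1 library left out. In ATF1/CREB1-KO 9 genes became 0 without a filter, 18 under median-ratio scaling, 609 with all 22 libraries, 4260 with all control clones, and 0 to 60 with 1 library left out (60 without replicate 3 of the label). In ATF1/CREB1/CREM-KO 1216 became 710 without a filter, 137 with all control clones, and 185 to 3317 with 1 library left out. The lower share of calls there, 57.4%, was 46.94% under median-ratio scaling and 46.67% under quantile normalization. In control clones 6 to 8 the members called, 7, became 4 under median-ratio scaling and 3 under quantile normalization. The causes of these moves were not tested.

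Of 383 alternative values of the members' own-run changes, 348 kept direction and call, 5 were newly called and 30 changed sign, none of which passed the threshold. With all control clones and no run term, a comparison that mixes runs, the changes in ATF1-KO were 0.30 (Atf2), -0.16 (Atf7), 0.38 (Creb3), 0.16 (Crebl2) and 0.35 (Crebzf). In ATF1/CREB1-KO they were -1.32 (Atf6b), -0.84 (Creb3) and -1.27 (Crebzf), and in ATF1/CREB1/CREM-KO 0.24 (Creb5), 0.67 (Atf6), 0.39 (Creb3), 0.66 (Creb3l2) and 0.25 (Crebzf). Quantile normalization gave 0.0218 for Crebl2 in ATF1/CREB1-KO and 0.0034 for Creb5 and 0.0327 for Atf6 in ATF1/CREB1/CREM-KO. With chromosome medians subtracted, Atf2 was at -0.0101 in ATF1/CREB1/CREM-KO.

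With 1 library left out, the signs turned for Atf7 in ATF1-KO (-0.0648 to 0.14) and, in ATF1/CREB1-KO, for Atf7 (-0.46 to 0.18), Creb3 (-0.0821 to 0.65), Crebl2 (-0.16 to 0.0176) and Crebzf (-0.16 to 0.13). They turned in ATF1/CREB1/CREM-KO for Creb5 (-0.27 to 0.0719) and Crebl2 (-0.0537 to 0.0674). In control clones 6 to 8, median-ratio scaling gave 0.0026 (Atf2), 0.35 (Creb5), 0.28 (Creb3l2) and 0.36 (Crebl2), and quantile normalization 0.10 (Creb5), 0.33 (Creb3l2) and 0.0558 (Crebl2). Between labels, median-ratio scaling turned Crebl2 (-0.0088, ATF1/CREB1-KO minus ATF1-KO) and Creb3 (0.0438, ATF1/CREB1/CREM-KO minus ATF1-KO). With a pseudocount of 0.1 the Atf6 difference between ATF1/CREB1-KO and ATF1-KO was called (adjusted p = 0.0451).

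In run 1 the replicate numbers did not pair the libraries: same-numbered deviations correlated between -0.10 and 0.08, and 1 of 5 pairs matched best with its own number. The fit with the replicate block called 0 genes and 0 members. The other runs share no replicate numbers between label and controls.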
